A study of Mus musculus with 6 samples.

Results

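The tight junction genes described here are Cldn5, Cldn12, Ocln, Marveld2, Lsr, F11r, Tjp1, Cgn and Cgnl1, 9 of the 23329 gene symbols counted in each library. They were chosen by symbol, with earlier results of these data known. Expression was measured by RNA sequencing of endothelial cells taken from the brains of C57BL/6 mice aged 8 weeks, and the cells were never cultured. Magnetic bead sorting (MACS) isolated them. Libraries labelled GLUT1EC-/- came from mice in which Slc2a1, the gene of the glucose carrier GLUT1, is knocked out in endothelial cells, and WT libraries came from littermates without the knockout. There were 3 libraries per group, each with a number of its own in its title, which is taken here as 1 mouse each. The Cre driver, the deleted exons and any induction scheme are not given in the sources used here. The comparison asked whether the genotype groups differ in transcript levels.

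Tight junctions seal the gap between neighbouring endothelial cells and are the structural basis of the low paracellular permeability of the blood-brain barrier. Claudins form the strands, MARVEL proteins such as occludin run in them, and angulins recruit tricellulin to the corners where cells meet at tricellular contacts. Junctional adhesion molecules lie beside the strands, and the plaque proteins ZO-1, cingulin and paracingulin tie the membrane proteins to actin.

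Total counts ran from 31874662 to 39424384 per library. The targeted gene did not separate the groups: Slc2a1 was at 3984, 4479 and 4172 CPM (counts per 1000000 counts of the library after scaling between libraries) in WT 1 to 3 and at 3735, 5414 and 3893 CPM in the libraries labelled GLUT1EC-/- 1 to 3. The fitted log2 difference was 0.05 with an SE of 0.18 (adjusted p = 0.921 by edgeR). All directions below are therefore between libraries as labelled, and transcripts that lack the deleted part would still be counted. GLUT1EC-/- 2 stood apart. Across tested genes its mean correlation to its own group was 0.971, where the remaining 5 libraries gave 0.978 to 0.993, and its TMM factor was 0.884, where theirs were 1.01 to 1.05. The 14 endothelial markers, among them Pecam1, Kdr and Ly6c1, were all tested. Their summed level was 16142 to 17693 CPM for WT and 16698 to 20149 CPM for GLUT1EC-/-, highest in GLUT1EC-/- 2. In these bulk samples, fewer cells of a type and less RNA per cell cannot be told apart.

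Levels were compared between genes per kilobase of annotated exon sequence. Cldn5, the dominant claudin of brain endothelium, stood first at 1326 CPM per kb over the 6 libraries, above 99.96% of the tested genes. Lsr, the tricellular angulin also called lipolysis-stimulated lipoprotein receptor, followed at 289.7 CPM per kb, 4.58 times lower. Tjp1, the ZO-1 scaffold gene, was at 148.9 CPM per kb, Cgnl1, the paracingulin gene, at 105.0, F11r, the gene of JAM-A, at 75.4 and Ocln, the occludin gene, at 54.9. Much lower were Marveld2, the tricellulin gene, at 5.16 CPM per kb, Cldn12, an atypical claudin, at 4.08 and Cgn, the cingulin gene, at 0.577. Marveld2 (4.12 to 6.93 CPM per kb) and Cldn12 (3.38 to 4.65) were the only neighbours in this order whose ranges over the 6 libraries overlapped.

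**Figure D1:**
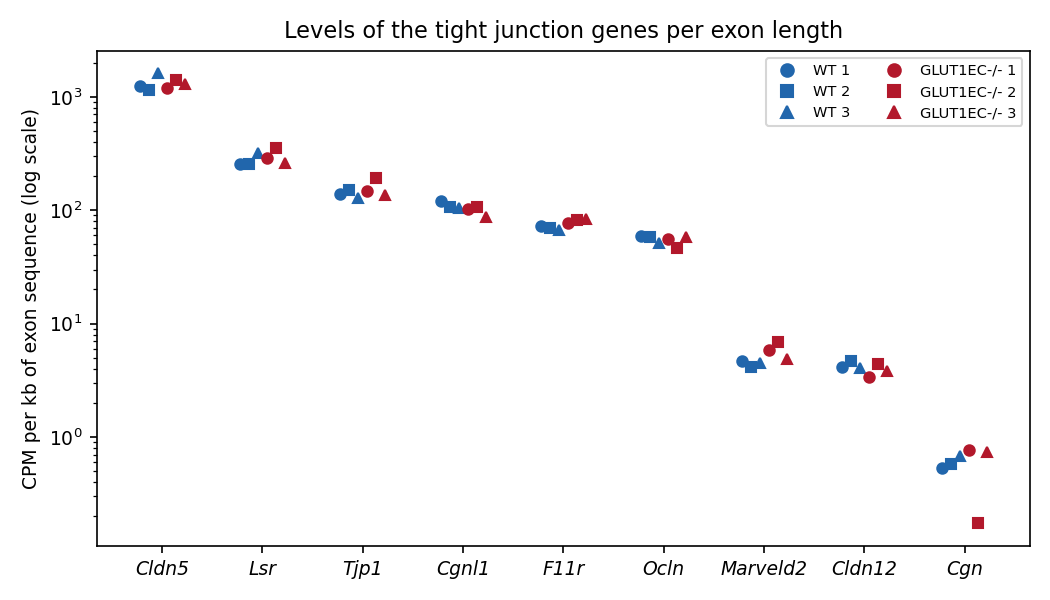
Level of each of the 9 tight junction genes in each library, in CPM per kb of exon sequence on a log axis; blue symbols are WT and red symbols GLUT1EC-/- libraries, 1 symbol per library. Cldn5 lies highest, at 1147 to 1615 CPM per kb, and Cgn lowest, with GLUT1EC-/- 2 below the other libraries.

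Within each protein family, the share of each gene was taken over the family members listed here. Cldn5 made up 98.5% ± 0.180 (SD, n = 3) of the summed claudin level per kb in WT and 98.5% ± 0.345 in the libraries labelled GLUT1EC-/-, over the 23 claudin genes with an annotated length. Cldn25 had no length in the annotation, so its count is not in this share. Cldn12 accounted for 0.250% to 0.399%. Of the 2 cingulin genes, Cgnl1 held 99.2% to 99.8% in every library, a level 182 times that of Cgn. Lsr held 93.2% to 96.8% of the 3 angulin genes. The JAM family was divided differently: F11r held 43.5% to 49.8% and Jam2 47.3% to 52.5%. The 4 MARVEL genes listed were Ocln, Marveld1, Marveld2 and Marveld3. Ocln held 64.3% ± 2.94 of their sum in WT and 56.4% ± 4.60 in the libraries labelled GLUT1EC-/-. There Marveld1, another MARVEL-domain gene, held 37.0% ± 3.83, against 30.3% ± 2.81 in WT. For Ocln the WT libraries held 66.8%, 65.0% and 61.0% and those labelled GLUT1EC-/- 59.9%, 51.2% and 58.1%. The groups did not overlap, and this share was not tested. It leaves out Mal, also a MARVEL-domain gene. Mal was at 139 CPM per kb in WT and 598 in the libraries labelled GLUT1EC-/-, above Ocln in both.

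The bases before the annotated start of 6 members are shown because they belong to pairs of members of 1 family with very unequal levels (Cldn5 and Cldn12, Cgnl1 and Cgn) and to Ocln and Lsr, whose levels ran in opposite order over the libraries. Each is the 250 bases before the outermost start in the RefSeq table of GRCm38.p6, in which all 9 members were found, written 5′ to 3′ on the strand of the gene. Capitals mark any of 4 motifs on either strand: the TATA box TATAAA, the GC box GGGCGG, the ETS core GGAAG and the Snail-type E-box CAGGTG. These searched motifs do not contain one another.
Cldn5, chr16:18776597-18776846, plus strand: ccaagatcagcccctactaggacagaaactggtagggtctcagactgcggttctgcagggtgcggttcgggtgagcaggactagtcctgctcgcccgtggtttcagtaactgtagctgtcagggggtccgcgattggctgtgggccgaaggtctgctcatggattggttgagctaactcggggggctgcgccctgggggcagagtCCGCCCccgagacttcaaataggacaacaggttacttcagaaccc
Cldn12, chr5:5514977-5515226, minus strand: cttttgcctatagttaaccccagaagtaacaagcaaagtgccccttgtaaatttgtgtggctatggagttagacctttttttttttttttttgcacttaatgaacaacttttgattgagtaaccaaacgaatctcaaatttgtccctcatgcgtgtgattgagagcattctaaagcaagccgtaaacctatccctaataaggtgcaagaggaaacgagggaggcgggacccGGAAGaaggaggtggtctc
Cgnl1, chr9:71771603-71771852, minus strand: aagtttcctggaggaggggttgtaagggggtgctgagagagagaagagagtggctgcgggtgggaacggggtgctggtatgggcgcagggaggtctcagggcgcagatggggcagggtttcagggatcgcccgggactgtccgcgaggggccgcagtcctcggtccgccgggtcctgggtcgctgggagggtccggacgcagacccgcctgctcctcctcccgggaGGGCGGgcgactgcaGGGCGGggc
Cgn, chr3:94786483-94786732, minus strand: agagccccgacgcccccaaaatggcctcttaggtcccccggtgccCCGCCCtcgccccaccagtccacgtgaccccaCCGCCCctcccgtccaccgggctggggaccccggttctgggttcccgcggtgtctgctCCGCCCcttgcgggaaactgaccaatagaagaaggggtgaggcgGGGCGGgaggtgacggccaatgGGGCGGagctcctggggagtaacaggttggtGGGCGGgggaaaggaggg
Ocln, chr13:100552719-100552968, minus strand: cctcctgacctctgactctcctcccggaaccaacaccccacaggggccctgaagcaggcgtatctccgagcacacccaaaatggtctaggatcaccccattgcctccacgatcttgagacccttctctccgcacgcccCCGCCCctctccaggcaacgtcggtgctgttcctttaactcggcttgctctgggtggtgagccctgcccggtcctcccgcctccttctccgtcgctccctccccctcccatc
Lsr, chr7:30973470-30973719, minus strand: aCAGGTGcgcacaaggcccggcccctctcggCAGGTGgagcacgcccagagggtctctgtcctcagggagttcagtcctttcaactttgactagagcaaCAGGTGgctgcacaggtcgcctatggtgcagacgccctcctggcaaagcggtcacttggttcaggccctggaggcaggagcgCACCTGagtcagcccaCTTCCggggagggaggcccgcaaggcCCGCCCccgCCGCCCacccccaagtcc

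Cgn and Cgnl1 had almost the same base composition in this window, 70.4% and 70.8% G or C, while their levels differed 182-fold. Cgn held 6 GC boxes and Cgnl1 2. Cldn5 held 59.6% G or C with 1 GC box, and Cldn12, whose table lists 3 starts, 42.0% with 1 ETS core and no GC box. Lsr held 4 Snail-type E-boxes and Ocln 0. Of all 32817 windows of this length, 32.7% held a GC box, 17.2% the E-box, 64.1% the ETS core and 12.4% the TATA box. The matches describe letters only.

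None of the 9 genes passed the test between the groups (edgeR quasi-likelihood test, adjusted p under 0.05 over 14838 genes), where 1.31% of all tested genes did. Higher calls were 0 of 9 against 0.863% of all tested genes, and lower calls 0 of 9 against 0.445%. DESeq2 and limma-voom also called 0 of the 9, beside 878 and 148 calls over all genes. At an unadjusted edgeR p under 0.05 there was 1 member, Marveld2, against 14.5% of all tested genes. All 9 passed the filter on low counts. Their fitted log2 fold changes ran from -0.16 to 0.41 with a median of -0.03, and 4 were above 0; over all tested genes the median was 0.01 and 51.5% were above 0. The groups did not overlap for 2 members, F11r and Marveld2, and for 22.9% of all tested genes, so 2 of 9 is near the background. The standard error of 8 members lay between 0.12 and 0.17 on the log2 scale, beside a median of 0.21 over all tested genes, and that of Cgn was 0.49.

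**Figure D2:**
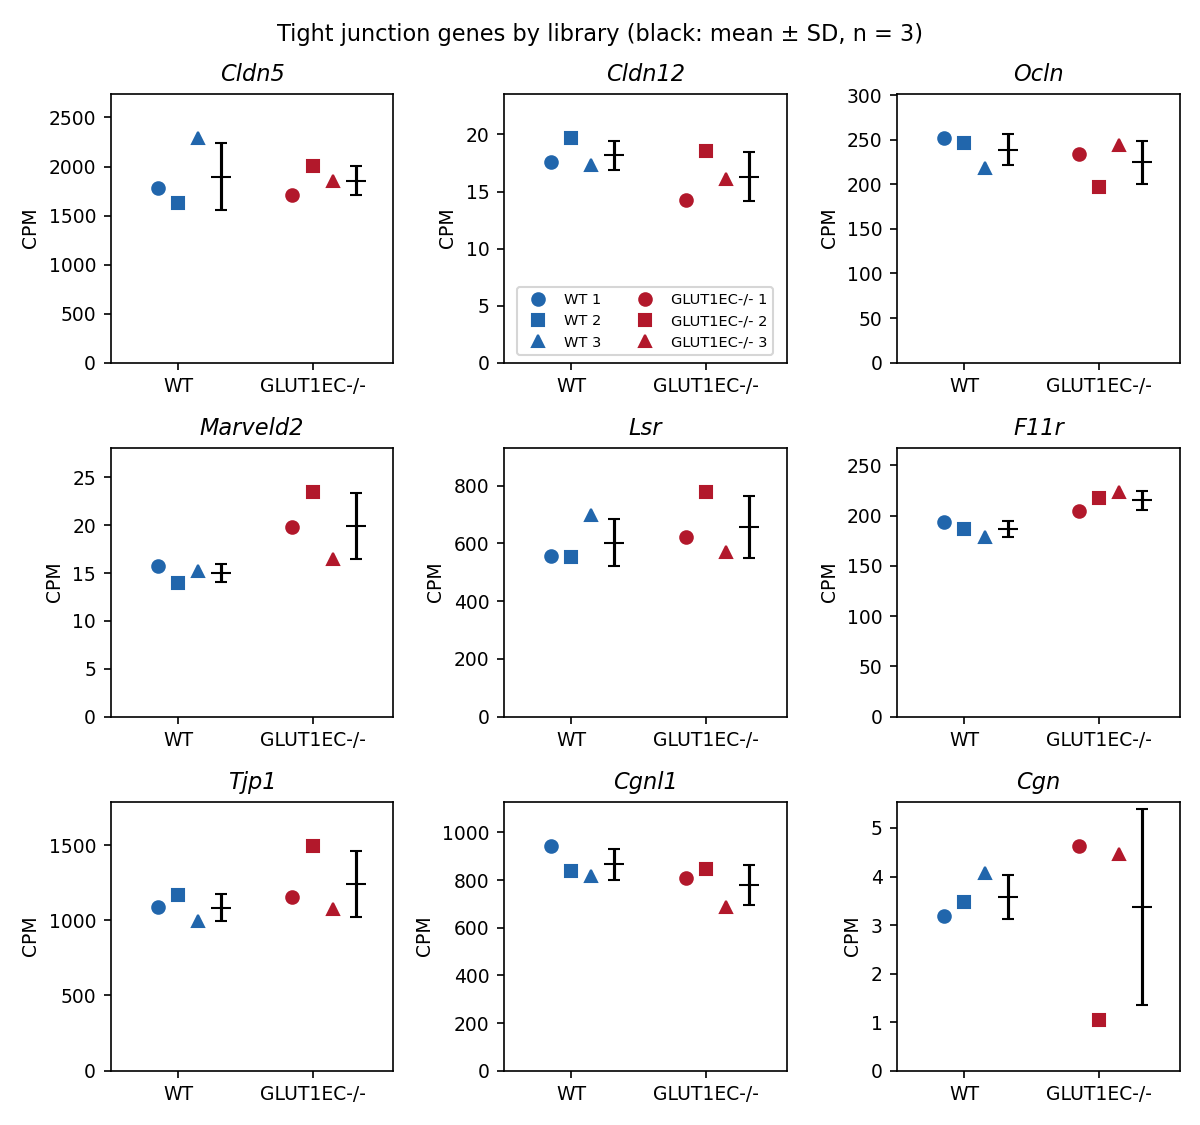
CPM of each tight junction gene in each library, with 1 panel per gene and axes starting at 0; blue is WT, red is GLUT1EC-/-, and black bars give mean ± SD over 3 libraries. The groups overlap in 7 panels and are separate for Marveld2 and F11r.

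Cldn5 showed no difference beyond the spread between libraries. It was at 1783, 1624 and 2287 CPM in WT 1 to 3, against 1711, 2005 and 1852 CPM in GLUT1EC-/- 1 to 3. The highest and the lowest of the 6 values were both WT libraries. The fold was 0.978 with a 95% interval of 0.750 to 1.27 (adjusted p = 0.941 by edgeR), whose ends are a fall of 25.0% and a rise of 27.4%. The interval reached down to 0.664 without WT 2 and up to 1.41 without GLUT1EC-/- 1. The direction of Cldn5 was not stable: the log2 fold change was -0.03 with all libraries, 0.12 without WT 3 and 0.02 without GLUT1EC-/- 1. Cldn5 (chromosome 16, 18776847 to 18778262 in GRCm38, plus strand) has a single annotated exon of 1416 bases, so its count cannot be divided among isoforms.

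Cldn12 is the other claudin among the members. Its values were 17.6, 19.7 and 17.3 CPM in WT 1 to 3, against 14.3, 18.6 and 16.1 CPM in GLUT1EC-/- 1 to 3, and the groups overlapped through GLUT1EC-/- 2. The fold was 0.897 (95% interval 0.698 to 1.15, adjusted p = 0.686 by edgeR). The gene lies on the minus strand of chromosome 5 (5489537 to 5514958).

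Occludin and tricellulin belong to the same MARVEL protein family, and their genes are neighbours on the minus strand of chromosome 13 (Ocln 100496507 to 100552718, Marveld2 100595957 to 100616971), 43238 bases apart. Ocln was at 252, 247 and 219 CPM in WT 1 to 3, against 234, 197 and 244 CPM in GLUT1EC-/- 1 to 3. The lowest value was in GLUT1EC-/- 2 and the ranges overlapped. The fold was 0.941 (95% interval 0.755 to 1.17, adjusted p = 0.798 by edgeR).

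Marveld2 had the largest fitted difference of the 9. It was at 15.7, 13.9 and 15.2 CPM in WT 1 to 3, against 19.8, 23.4 and 16.5 CPM in GLUT1EC-/- 1 to 3. Every library labelled GLUT1EC-/- lay above every WT library, and GLUT1EC-/- 3 exceeded WT 1 by less than 1 CPM. The fold was 1.33 (95% interval 1.01 to 1.75), and with adjustment over all genes the difference did not pass (edgeR unadjusted p = 0.0415, adjusted p = 0.318). The log2 fold change was 0.41 with all libraries, 0.27 without GLUT1EC-/- 2 and 0.53 without GLUT1EC-/- 3. Over all its alternatives the adjusted p lay between 0.165 and 0.680. Within the libraries numbered in the 200s (2 WT, 1 GLUT1EC-/-) and in the 500s (1 WT, 2 GLUT1EC-/-) the log2 ratios of the library means were 0.41 and 0.36. Levels per kb stayed far below those of occludin, whose mean was 10.7 times that of Marveld2. The labels do not say what the number series stand for. Beside Marveld2, the 10 oligodendrocyte markers, 9 of them tested, summed to 763 to 797 CPM for WT and to 1489, 3265 and 1244 CPM for GLUT1EC-/- 1 to 3, in the same order as Marveld2 among these 3 libraries. Mal, a MARVEL-domain gene on that list, made up most of the GLUT1EC-/- sums, at 356, 405 and 398 CPM in WT against 1158, 2901 and 924 CPM. The other 8 tested markers were lower by value, and no marker was at 0 in all libraries. The 10 leukocyte markers, all tested, summed to 201 to 338 CPM for WT and 76.0 to 159 CPM for GLUT1EC-/-. The oligodendrocyte and leukocyte lists had the strongest correlations with Marveld2 among the lists compared (r = 0.96 and -0.97 over 6 libraries). The part of these cells in the Marveld2 values was not tested.

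Lsr, which encodes the angulin that recruits tricellulin, was at 557, 553 and 697 CPM in WT 1 to 3, against 621, 776 and 570 CPM in GLUT1EC-/- 1 to 3. WT 3 and GLUT1EC-/- 2 were the high libraries of their groups, and the ranges overlapped. The fold was 1.09 (95% interval 0.832 to 1.42, adjusted p = 0.769 by edgeR). Its log2 fold change was 0.12 with all libraries and -0.02 without GLUT1EC-/- 2. Lsr (chromosome 7, 30957770 to 30973464) shares exon positions with 2 annotated non-coding genes on the other strand, and with no strand setting stated its count is uncertain to that extent; no other member shares exon positions with another annotated gene.

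F11r, whose product JAM-A is an immunoglobulin-type adhesion protein of endothelial and epithelial junctions and of platelets and leukocytes, was at 194, 187 and 178 CPM in WT 1 to 3, against 205, 217 and 223 CPM in GLUT1EC-/- 1 to 3. The groups did not overlap, and the gap between WT 1 and GLUT1EC-/- 1 was smaller than the range within either group. The fold was 1.15 (95% interval 0.955 to 1.39, adjusted p = 0.477 by edgeR). It was the most precisely measured member, with a standard error of 0.12 on the log2 scale. Beside it, platelet markers (6 genes, 5 of them tested) summed to 24.8 to 42.7 CPM for WT and 21.3 to 25.9 CPM for GLUT1EC-/-, and leukocyte markers (10 genes, all tested) to 201 to 338 CPM and 76.0 to 159 CPM; no platelet or leukocyte marker was at 0 in all libraries. The 10 astrocyte markers, all tested and 1 called higher, summed to 104 to 121 CPM for WT and 138 to 167 CPM for GLUT1EC-/-, and the 12 microglia markers, all tested and 3 called higher, to 546 to 638 CPM and 812 to 1702 CPM, with no marker at 0 in all libraries. The astrocyte sums differed through Gfap, at 5.44 to 5.90 CPM for WT and 36.4 to 59.8 CPM for GLUT1EC-/-: without it, a check added after seeing the data, they were 98.2 to 115 CPM and 101 to 118 CPM and overlapped, and 5 of the 10 markers were higher and 5 lower by value. The microglia sums were higher, and the leukocyte sums lower, in every GLUT1EC-/- library than in any WT library, and the platelet sums overlapped. By value 10 microglia markers were higher and 2 lower, and groups did not overlap for 4, beside 22.9% of all tested genes. C1qa, C1qb and C1qc were at 57.5 to 88.5 CPM for WT and 146 to 308 CPM for GLUT1EC-/-. Cx3cr1, P2ry12 and Siglech were lower in GLUT1EC-/- 2 than in every WT library. Of the lists compared, the astrocyte list had the strongest correlation with F11r (r = 0.92 over 6 libraries). The part of these cells in the F11r values was not tested.

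Among the plaque genes, Tjp1 was at 1089, 1170 and 996 CPM in WT 1 to 3, against 1158, 1492 and 1074 CPM in GLUT1EC-/- 1 to 3. GLUT1EC-/- 2 was the high library, and the other 5 lay between 996 and 1170 CPM. The fold was 1.14 (95% interval 0.881 to 1.49, adjusted p = 0.629 by edgeR), and the log2 fold change of 0.19 became 0.03 without GLUT1EC-/- 2. Beside Tjp1, the 10 pericyte markers, all tested with 0 called, summed to 1141, 1352 and 1159 CPM for WT 1 to 3 and 1297, 1650 and 1344 CPM for GLUT1EC-/- 1 to 3, and the oligodendrocyte sums given above were also highest in GLUT1EC-/- 2. The pericyte and oligodendrocyte lists had the strongest correlations with Tjp1 among the lists compared (r = 0.90 and 0.86 over 6 libraries). Their part in the Tjp1 values was not tested. Cgnl1, whose product binds ZO-1, was at 941, 839 and 819 CPM in WT 1 to 3, against 809, 846 and 685 CPM in GLUT1EC-/- 1 to 3. These ranges overlapped, with a fold of 0.900 (95% interval 0.719 to 1.13, adjusted p = 0.663 by edgeR). In GLUT1EC-/- 3, where Cgnl1 was lowest, the microglia sum was 1702 CPM and the sum of the 8 fibroblast markers, all tested and 1 called higher, was 643 CPM, the highest of the 6 libraries for both lists. In WT 1, where Cgnl1 was highest, the microglia sum was the lowest at 546 CPM, and the fibroblast sums ran from 357 to 500 CPM for WT and from 342 CPM for GLUT1EC-/-. The epithelial sums were lowest in WT 1 and highest in GLUT1EC-/- 3 as well. Over the 6 libraries r with Cgnl1 was -0.89 for microglia, -0.88 for fibroblast and -0.85 for epithelial markers, the strongest of the lists compared. The matching order is therefore a description, and the part of these cells was not tested.

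Cgn was barely present. Its counts were 103, 119 and 165 in WT and 177, 35 and 165 in the libraries labelled GLUT1EC-/-, or 3.19, 3.48 and 4.06 CPM against 4.62, 1.05 and 4.47 CPM. GLUT1EC-/- 2 lay far below the other 5 libraries. The fold of 0.946 had a 95% interval of 0.436 to 2.05 (adjusted p = 0.949 by edgeR), an interval that reaches past 2-fold lower and 2-fold higher. The log2 fold change was -0.08 with all libraries, 0.34 without GLUT1EC-/- 2 and 0.02 without WT 3. Cingulin is typical of epithelia, and the 9 choroid plexus markers, all tested, moved beside it: they summed to 5230, 6083 and 8536 CPM for WT 1 to 3 and 7738, 4091 and 6625 CPM for GLUT1EC-/- 1 to 3, lowest in GLUT1EC-/- 2. Kl, a defining gene of choroid plexus epithelium, was at 39.4 CPM in GLUT1EC-/- 2 and at 106 to 160 CPM in the other libraries, and no marker of that list was at 0 in all libraries. Of the 8 general epithelial markers, 6 were tested, and their sums were 20.98 to 34.4 CPM for WT and 32.7 to 39.8 CPM for GLUT1EC-/-. The part of these cells in the Cgn count was not tested.

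**Figure D3:**
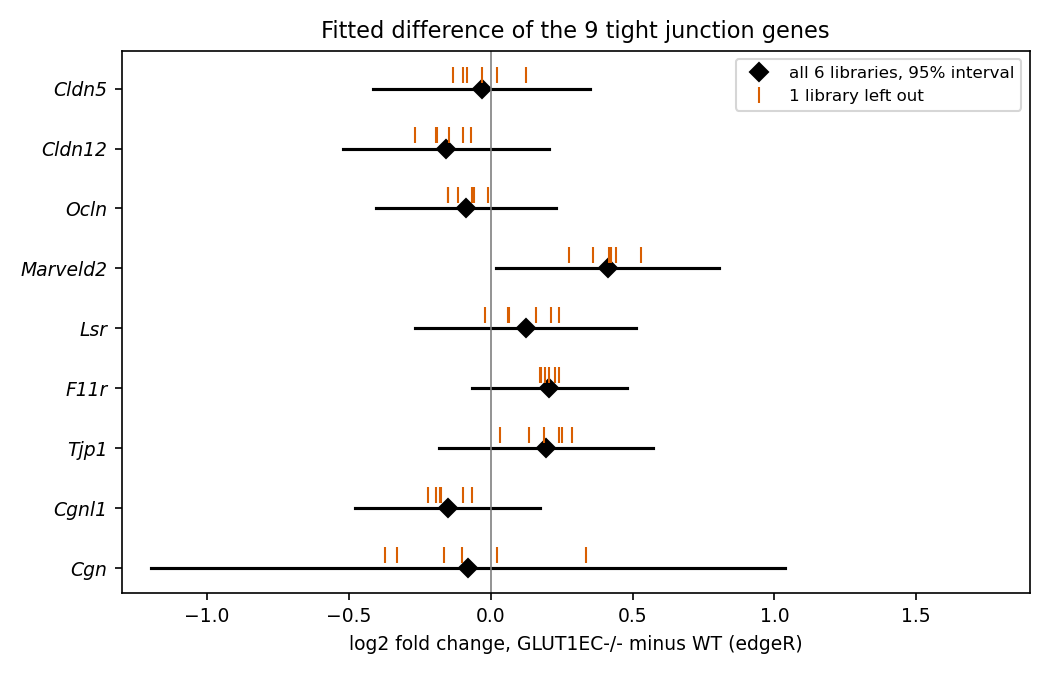
Fitted log2 fold change (GLUT1EC-/- minus WT) of the 9 genes with its 95% interval (diamonds and lines), and the value with each library left out in turn (orange ticks). The interval of Marveld2 lies just above 0, the other 8 include 0, and that of Cgn is the widest.

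Scaling each library to its summed endothelial markers instead of to all genes left the direction of all 9 members as it was. On that scale the log2 fold change of Marveld2 was 0.32, that of Cgnl1 -0.23 and that of Cldn5 -0.11, and none passed (smallest adjusted p = 0.451 by edgeR, for Marveld2). Per 1000 CPM of endothelial markers, Cldn5 was at 112 ± 15.3 CPM for WT and 104 ± 5.27 CPM for GLUT1EC-/-. Cgnl1 was at 51.4 ± 4.82 and 43.7 ± 4.20 CPM on the same scale. Of the 14 markers behind this scale 0 were called, and their log2 fold changes ran from -0.40 to 0.81. Groups did not overlap for 8 of them, 5 higher and 3 lower, beside 22.9% of all tested genes. The scale is therefore no fixed reference.

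The members did not move as a block over the libraries. Of the 36 pairs among them, 15 had a positive and 21 a negative Pearson correlation of log2 CPM over the 6 libraries, and 0 passed after adjustment over the 36 pairs. The strongest relation was an opposite one: Ocln was lowest where Lsr was highest, in GLUT1EC-/- 2 and WT 3. Pearson's r was -0.99 (exact two-sided permutation p = 0.00278 over 720 orders of the 6 libraries, adjusted p = 0.1) and Spearman's correlation was -0.94 (exact permutation p = 0.0167, adjusted p = 0.6). Without the 2 libraries farthest from the median of Ocln, r was -0.95. Each number series holds 3 libraries, too few for a value of its own. The summed endothelial markers were highest in the same 2 libraries, at 20149 and 17693 CPM, and their part in the relation was not tested.

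**Figure D4:**
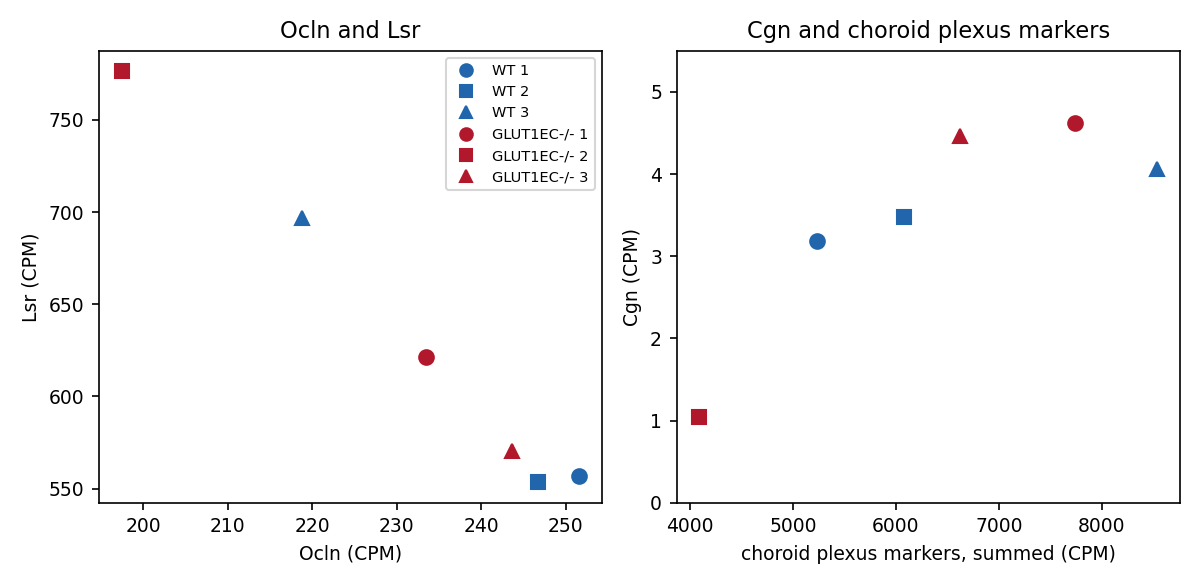
Left, Lsr against Ocln in CPM for the 6 libraries; right, Cgn in CPM against the summed CPM of 9 choroid plexus markers. Blue symbols are WT and red symbols GLUT1EC-/- libraries. Lsr is lower where Ocln is higher, and GLUT1EC-/- 2 lies at the end of both plots.

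For 4 members the 3 most similar patterns over the 6 libraries were sought among genes with at least 10 CPM on average, 9244 candidates for each. Tnfrsf22, Ube2d1 and AI314976 followed Cldn5 most closely (r = 0.996, 0.985 and 0.982). Ocln was followed by Extl3, Ttc37 and Clec1a (r = 0.995, 0.991 and 0.985), Tjp1 by Mob1b, Dnajc5 and Gmps (r = 0.997 each) and Lsr by Napa, Pcgf2 and Armc10 (r = 0.996, 0.993 and 0.993). These are the highest of many candidates over 6 points and are given as a description.

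The wider junction machinery was described with lists of 89 genes, of which 84 were in the files and 70 passed the filter. None was called (edgeR, adjusted p under 0.05), beside 1.31% of all tested genes. With an unadjusted p under 0.05 there were 6 higher and 4 lower genes, beside 14.5% of all tested genes. With limma-voom 0 were called, beside 148 over all genes, and with DESeq2 1, beside 878. The gene called by DESeq2 was Ctnnb1, which encodes beta-catenin. Their median log2 fold change was -0.03, against 0.01 over all tested genes, and 17 of the 70 had groups that did not overlap, beside 22.9% of all tested genes.

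**Figure D5:**
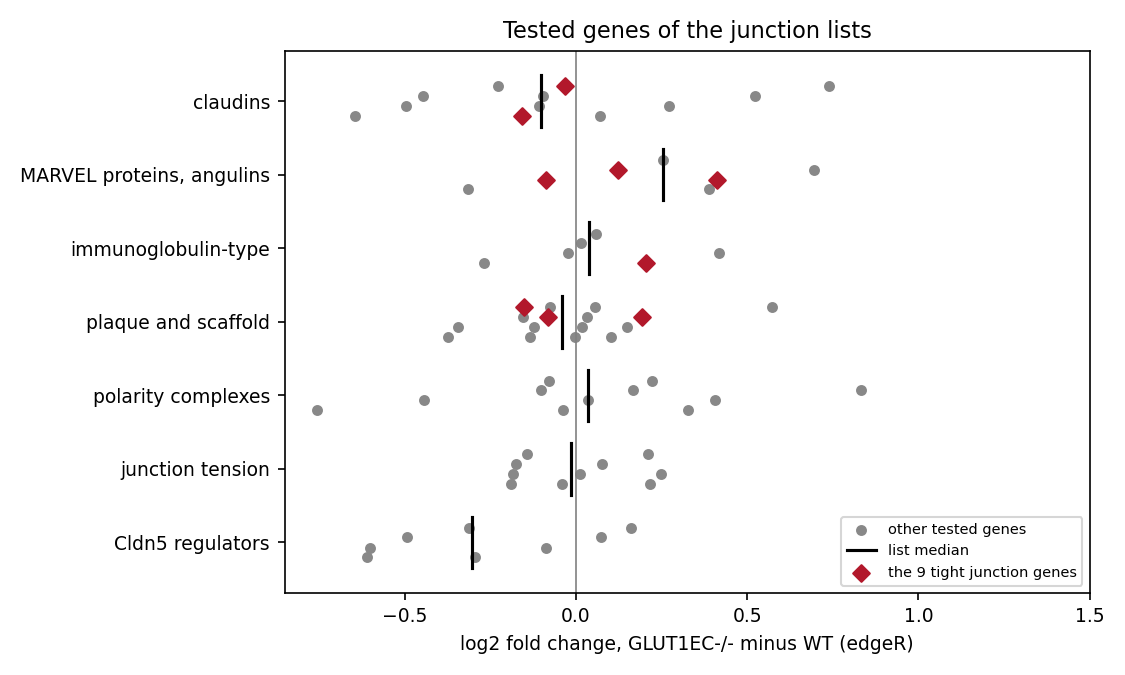
Fitted log2 fold change (GLUT1EC-/- minus WT) of the 70 tested genes of the junction lists, by list; red diamonds are the 9 tight junction genes, grey points the other genes and black lines list medians. Most points lie within 0.4 of 0, and the median of the Cldn5 regulators is -0.30.

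Among 25 claudin genes in the files, 12 were tested and 6 had no count in any library, where 3 counts correspond to 0.0739 to 0.0928 CPM per library. Cldn25 and Cldn2 had the highest counts after Cldn5 and Cldn12 are set aside. Cldn25 was at 32.6, 39.2 and 40.6 CPM in WT 1 to 3, against 34.0, 36.4 and 34.6 CPM in GLUT1EC-/- 1 to 3. Cldn2, a pore-forming claudin of leaky epithelia such as the choroid plexus, was at 19.0, 24.3 and 28.6 CPM against 27.5, 6.87 and 26.9 CPM, lowest in the same library as the choroid plexus markers. Cldn1 had the lowest unadjusted p of the list, 0.0124, with 5.94, 7.25 and 10.2 CPM against 13.5, 11.2 and 14.3 CPM and a log2 difference of 0.74 (SE 0.23, adjusted p = 0.192 by edgeR). Cldn9 followed with a log2 difference of -0.64 (adjusted p = 0.506 by edgeR).

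Of the 7 listed MARVEL and angulin genes, all were tested. Groups did not overlap for 3 of them, all higher by value in the libraries labelled GLUT1EC-/-, beside 22.9% of all tested genes. Besides Marveld2 these were Ildr2, an angulin-related gene, at 103, 113 and 87.6 CPM against 170, 202 and 118 CPM (log2 difference 0.69, adjusted p = 0.175 by edgeR), and Marveld1 at 106, 117 and 121 CPM against 133, 162 and 156 CPM (log2 difference 0.39, adjusted p = 0.233 by edgeR). Ildr2 passed without GLUT1EC-/- 3, at 0.88 (adjusted p = 0.0399 by edgeR), and shares exon positions with a non-coding gene on the other strand. The list median was 0.25, beside 0.01 over all tested genes, and with 0 called nothing particular to these genes is read from it.

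Esam, an endothelial adhesion molecule of tight junctions, was at 723, 699 and 721 CPM in WT 1 to 3, against 920, 1144 and 800 CPM in GLUT1EC-/- 1 to 3 (log2 difference 0.42 with an SE of 0.16, adjusted p = 0.276 by edgeR). Its groups did not overlap, and neither did those of Jam3, which lay lower at 15.4 to 16.5 CPM against 17.4 to 20.2 CPM (adjusted p = 0.445 by edgeR). Jam2, the second JAM of endothelium, had a log2 fold change of 0.02 (SE 0.13). In the scaffold list, the angiomotin relative Amotl2 had a log2 fold change of -0.14. Magi1, a membrane-associated scaffold, was at 58.3, 56.2 and 59.5 CPM against 74.9, 106 and 77.9 CPM (log2 difference 0.57 with an SE of 0.16, adjusted p = 0.149 by edgeR), and without GLUT1EC-/- 2 it passed at 0.39 (adjusted p = 0.0409 by edgeR). Amot was at -0.34 (adjusted p = 0.415 by edgeR).

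Polarity and tension genes gave no call either, beside 1.31% of all tested genes. Pard3, which encodes the scaffold of the PAR complex, was at 387 CPM in GLUT1EC-/- 2 and at 124 to 164 CPM in the other 5 libraries (log2 difference 0.83 with an SE of 0.36, adjusted p = 0.345 by edgeR). Lin7c had a log2 fold change of 0.33 (adjusted p = 0.459 by edgeR). Rhob and Rhoa, the most counted genes of the junction tension list, were at -0.19 and 0.08, Rock2 at 0.25 (adjusted p = 0.456 by edgeR) and Arhgap17 at -0.18 (adjusted p = 0.55 by edgeR). Rhoa and Arhgap17 share exon positions with coding genes on the other strand, and Jam3 and Foxo1 with non-coding ones there, so their counts are uncertain. The junction tension list had 10 tested members with a median of -0.01 and none with an unadjusted p under 0.05, beside 14.5% of all tested genes.

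The regulators of Cldn5 transcription had a median log2 fold change of -0.30 over 8 tested genes, beside 0.01 over all tested genes. This difference was not tested. By value 2 of the 8 were higher and 6 lower, and the list was not divided by the direction in which each gene acts on Cldn5. Ctnnb1, whose product carries Wnt signals and also sits at adherens junctions, was at 1550, 1461 and 1265 CPM in WT 1 to 3, against 983, 787 and 1031 CPM in GLUT1EC-/- 1 to 3 (log2 difference -0.61 with an SE of 0.16, adjusted p = 0.127 by edgeR, DESeq2 adjusted p = 0.013). Its groups did not overlap, and its exons overlap those of a coding gene on the other strand. Ets1, an ETS factor of endothelium, was at 504.6, 475.5 and 432 CPM against 397, 265 and 342 CPM (log2 difference -0.49, adjusted p = 0.239 by edgeR). Sox18 and Foxo1, named after their values were seen, had log2 fold changes of -0.60 and -0.31 (adjusted p = 0.249 and 0.261 by edgeR). The groups overlapped for Sox18, at 321 CPM in GLUT1EC-/- 3 and 313 CPM in WT 2. Cdh5, the VE-cadherin gene, was at 0.07 (SE 0.19). Beside these values stands the fold of 0.978 for Cldn5 itself.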

How the data were processed

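The 6 libraries were made with the Illumina TruSeq stranded mRNA protocol, per the labels' protocols. The submitters' processing notes name STAR, featureCounts and GRCm38; versions, gene models and the strand setting of the counting are not given in the sources used here. The authors deposited raw counts for 23329 gene symbols in each library, with no normalization. Totals were 31874662 to 39424384.

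Starting from these counts, edgeR 4.0.16 (R 4.3.3) was fitted to all 6 libraries with genotype as its single term, after TMM scaling and the filterByExpr filter (a count of at least 10, a total of at least 15). The robust quasi-likelihood F test was used, and Benjamini-Hochberg adjustment ran over 14838 genes at 0.05. CPM use TMM-scaled library sizes. Standard errors are the log2 fold change over the square root of F, and 95% intervals use the t distribution. Correlations used log2(CPM + 0.5). Lengths and coordinates are from GENCODE M21 (GRCm38). Alternatives were DESeq2 1.42.0, limma-voom (limma 3.58.1), other scalings and filters, the number series of the titles as a term, an adjusted p of 0.1, and each library left out. The edgeR step was tested on simulated data. It recovered 10.4% of simulated 1.5-fold changes, 58.2% of 2-fold and 92.4% of 4-fold changes, so most 1.5-fold changes would be missed.

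The members and gene lists were chosen with earlier results of these data known. Each of the 9 members was also correlated with marker lists over the 6 libraries. The lists set beside members include the strongest of these correlations, so shared highs and lows are a description only. Named are all 9 members, Slc2a1 and, of each junction list, every called gene or else the 2 most counted and the 2 with the lowest unadjusted p among its other tested genes; for 4 members, also the 3 genes most alike over the libraries. A gene that this rule names is not reported here. The labels do not state that the libraries of a group come from separate animals, so p-values measure the spread between these libraries, which may be technical. Replicates differed by more than counting noise (chi-square per degree of freedom from 12.2 to 182).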

Additional observations from a re-analysis of the deposited data

How the results depend on the processing

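No member was called under any of the 15 alternatives run for it. Leaving out single libraries turned 3 signs: the log2 fold change of Cldn5 ran from -0.13 to 0.12 (positive without WT 3 and without GLUT1EC-/- 1), that of Cgn from -0.37 to 0.34 (positive without WT 3 and without GLUT1EC-/- 2) and that of Lsr from -0.02 to 0.24 (-0.022 without GLUT1EC-/- 2). The other 6 members kept their sign throughout. Junction list calls were 1 with DESeq2 (Ctnnb1) and 0 to 1 with a library left out (Magi1 without GLUT1EC-/- 2, Ildr2 without GLUT1EC-/- 3), against 0. Over all genes the 194 calls became 878 with DESeq2, 76 when scaled to endothelial markers, 14 with the number series as a term, 429 at an adjusted p of 0.1, and 0 to 862 with a library left out (0 without WT 1, 862 without GLUT1EC-/- 2). The cause was not tested. No paired analysis was possible because the labels give no replicate numbers shared between the groups. Cgn had the fewest counts of the members, 35 to 177 per library, and its SE of 0.49 became 0.20 without GLUT1EC-/- 2.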

Other observations

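GLUT1EC-/- 2 held the lowest value for 21 of the 70 tested junction genes (30.0%) and the highest for 25 (35.7%), against 34.8% and 33.2% of all tested genes. The genes furthest below the other libraries there were those of the atypical kinase Prkcz, at 0.657 CPM against 3.26 to 4.41 CPM, then Cgn, Cldn2 and the Crumbs gene Crb2, at 2.57 CPM against 6.25 to 8.65 CPM. Crb2 shares exon positions with a coding gene on the other strand, so its count is uncertain. These genes were named after their values were seen.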
